A study of Mus musculus with 6 samples.

Results

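Iron-sulfur clusters are small inorganic cofactors that many enzymes need to move electrons or hold substrates, and most of them start in the mitochondrial matrix. There, a cysteine desulfurase supplies sulfur, a scaffold protein holds the new cluster, carrier proteins convert it to the larger cubane-type cluster, and targeting factors pass it to recipient enzymes such as lipoyl synthase and to the respiratory chain. An oocyte carries very many mitochondria, makes its ATP mainly by oxidative metabolism, and transcribes little or nothing between resumption of meiosis and arrest at metaphase II (MII), so that the RNA of an MII oocyte is largely a stored maternal pool. The genes described here are 9 that encode this mitochondrial pathway, taken by symbol and Ensembl identifier from the 60193 genes listed: Nfs1, Lyrm4, Iscu, Glrx5, Isca1, Isca2, Iba57, Nfu1 and Bola3. Each of the 9 symbols matched 1 row, and 8 of the 9 genes passed the expression filter and were tested.

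All libraries were made from MII oocytes of ICR mice of 42 to 45 weeks, an age near the end of the reproductive lifespan, and every library pooled 20 oocytes from 3 mice, so no value belongs to a single animal or cell. In the 3 in vitro maturation (IVM) pools, germinal vesicle oocytes had been taken from ovaries 46 h after PMSG, stripped of cumulus cells and cultured in M16 medium for 12 h. In the 3 in vivo maturation (IVO) pools, mice received hCG 46 h after PMSG, and ovulated oocytes were taken from the oviduct 14 h later and freed of cumulus cells with hyaluronidase. Both groups thus received PMSG, while hCG, follicle and cumulus contact, medium and time all differed between them and cannot be told apart.

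Expression is given as the authors' FPKM, fragments on a gene divided by effective transcript length in kilobases and by library size. Effective length was taken here as transcript length minus mean fragment length plus 1. The depth inferred from the spacing of low FPKM values was 16460000 to 19260000 fragments in IVM and 17930000 to 18160000 in IVO, and 3 fragments on a transcript of 1000 bases corresponded to 0.196 to 0.232 FPKM, a floor that covers counting error only. The inferred mean fragment length was 206 to 217 bases in IVM and 248 to 264 bases in IVO, without overlap. The divisor of a short transcript therefore differed between the groups. All 11 oocyte markers reached 1 FPKM in every library, with a summed level of 21480 to 27940 FPKM in IVM and 21148 to 23343 in IVO. Of 15 cumulus and granulosa markers, 12 stayed under 1 FPKM in every library (Amh was at 0) and 3 (Fshr, Cyp19a1 and Nr5a2) reached it in every library, and the summed level was 62.2 to 64.7 FPKM in IVM and 44.3 to 54.4 in IVO. The 5 oviduct markers summed to 2.76 to 3.01 FPKM in IVM and 3.40 to 5.63 in IVO. Of these, 4 stayed under 1 FPKM in every library (Pax8 was at 0) and Epcam reached it in every library. The 5 blood markers summed to 0 to 0.21 FPKM in IVM and 1.76 to 4.48 in IVO. Only 2 of them stayed under 1 FPKM in every library (Alas2 was at 0), and none reached it in every library. The part of these differences in the results was not tested. In pooled oocytes, fewer cells with a transcript and less of it per cell cannot be told apart.

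The IVO and IVM pools were compared with limma, fitted to log2(FPKM + 1) of the 18818 genes with a mean of at least 1 FPKM over the 6 libraries. Differences (log2FC) are IVO minus IVM on this scale, which understates the change of low genes. A gene was called at an adjusted p (limma, two-sided, Benjamini-Hochberg over all tested genes) under 0.05 and counted as a DEG when |log2FC| was also at least 1. Of the 8 tested genes, 4 were called lower in IVO (Isca2, Isca1, Bola3 and Glrx5), none was called higher, and 4 (Nfs1, Lyrm4, Iscu and Nfu1) were not called. At an unadjusted limma p under 0.05, 0 were higher as well. Over all tested genes, 21.5% were called lower and 1.87% higher. The 4 called genes were all DEGs, as were 17.9% of all tested genes in the lower direction. Isca2 entered the test only through its IVM libraries, since its IVO mean was under 1 FPKM, and without it the count was 3 of 7.

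The count and its background depended on the scaling of the libraries. In the deposited FPKM the median log2FC over all tested genes was -0.30. It was -0.18 with Ensembl genes only, to which the 9 genes belong, and -0.07 with no filter. When each library was scaled by its median ratio to the mean library, the median over all tested genes was -0.04. With this scaling 4 of the 9 genes were still called lower, and Nfu1 was called higher. Under this scaling 13.0% of all tested genes were called lower, 7.19% higher and 11.2% were DEGs in the lower direction. With quantile normalization the median of all tested genes was 0.17, 3 of the 9 genes were called lower (Isca2, Isca1 and Bola3) and Nfu1 was again called higher. The corresponding shares of all tested genes were 10.7% lower, 14.8% higher and 8.40% DEGs in the lower direction. Isca1 and Isca2 were the 2 members that stayed DEGs under both scalings.

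**Figure D1:**
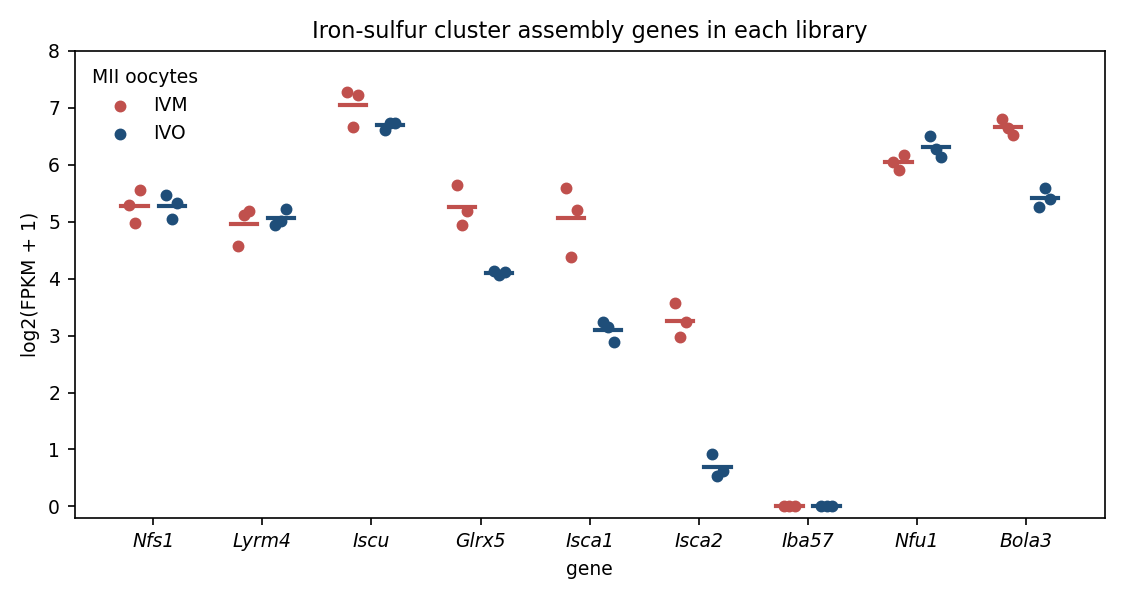
Expression as log2(FPKM + 1) of the 9 mitochondrial iron-sulfur assembly genes in each of the 3 IVM and 3 IVO pools, each point being 1 pool of oocytes and each horizontal line a group mean. Isca1, Isca2, Glrx5 and Bola3 had every IVM value above every IVO value, Nfs1, Lyrm4, Iscu and Nfu1 overlapped, and Iba57 was listed at 0 in all 6 pools.

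The first step, release of sulfur from cysteine, gave no call. Nfs1 encodes the cysteine desulfurase and lies on the reverse strand of chromosome 2 (GRCm39, chr2:155965556-155986374, ENSMUSG00000027618). Its FPKM was 38.29, 30.63 and 45.88 in IVM and 43.09, 32.07 and 39.01 in IVO. The 2 groups covered the same range, with means of 38.3 ± 7.63 and 38.1 ± 5.57 FPKM (SD, n = 3 each). The log2FC was 0.00 (standard error 0.22, 95% interval -0.52 to 0.52, limma adjusted p = 0.999).

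Lyrm4 encodes ISD11, the small LYR-motif protein that holds the desulfurase in its active form, and it lies on the reverse strand of chromosome 13 (chr13:36162378-36301570, ENSMUSG00000046573). Its FPKM was 22.74, 33.76 and 35.29 in IVM and 29.79, 31.41 and 36.16 in IVO. The lowest value came from an IVM pool, and the other five values lay within a narrow band in which the groups overlapped. The log2FC was 0.10 (standard error 0.23, 95% interval -0.43 to 0.64, limma adjusted p = 0.783). Within single libraries the log2 ratio of Lyrm4 to Nfs1 was -0.32 ± 0.43 in IVM and -0.22 ± 0.26 in IVO (SD, n = 3). This ratio of the partner to the desulfurase differed by 0.10 between groups, less than the spread between libraries (exact two-sided permutation test, p = 0.8).

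Exons of these 2 genes overlap abundant genes on the opposite strand, and the library kit does not mark strand. The Nfs1 transcript of closest length shares 431 bases (21.0%) with Romo1, which stood at 777 to 834 FPKM in IVM and 546 to 678 in IVO (log2FC -0.38, limma adjusted p = 0.104). The Lyrm4 transcript shares 247 bases (12.2%) with Fars2, at 292 to 376 FPKM in IVM and 224 to 246 in IVO (log2FC -0.50, limma adjusted p = 0.0649). Nfs1 also shares 256 bases (12.5%) with Gm28036 on its own strand, which did not exceed 2.62 FPKM. The Nfu1 transcript shares 175 bases (14.4%) with an annotated gene that has no deposited values. How the authors' read assignment divided such fragments was not tested, so the levels of Nfs1, Lyrm4 and Nfu1 are less certain than those of genes without an overlap. The annotation also holds 10 copies of the 9 genes, mostly processed pseudogenes, and none exceeded 3.79 FPKM, the highest value of Gm7859, a copy of Nfu1.

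Iscu encodes the scaffold on which the cluster is first built, and was the most abundant of the 9 by mean FPKM in both groups. It lies on the forward strand of chromosome 5 (chr5:113910776-113917545, ENSMUSG00000025825), with no other annotated gene over the exons of its transcript of closest length. Its FPKM was 153.16, 100.27 and 148.4 in IVM and 97.16, 104.93 and 105.11 in IVO. IVM pools 1 and 3 were higher than every IVO pool, whereas IVM pool 2 lay among the IVO values, so the groups overlapped. The log2FC was -0.36 (standard error 0.21, 95% interval -0.85 to 0.13, limma adjusted p = 0.263), and without IVM pool 2 it was -0.55 (adjusted p = 0.0582). The log2 ratio of Iscu to Nfs1 was 1.77 ± 0.17 in IVM and 1.41 ± 0.26 in IVO (SD, n = 3), and the groups overlapped, with a difference of -0.36 (exact two-sided permutation test, p = 0.3, where 3 against 3 libraries allow no p under 0.1).

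The step after the scaffold was called lower in IVO. Glrx5 encodes the mitochondrial monothiol glutaredoxin that takes over the cluster from ISCU, and lies on the forward strand of chromosome 12 (chr12:104998939-105009165, ENSMUSG00000021102). Its FPKM was 49.02, 29.84 and 35.49 in IVM and 16.48, 15.73 and 16.44 in IVO. Each IVM pool was higher than each IVO pool, and the 3 IVO pools were nearly alike, at 16.2 ± 0.422 FPKM (SD, n = 3). The IVM mean was 2.35 times the IVO mean, and the log2FC was -1.15 (standard error 0.23, 95% interval -1.69 to -0.62, limma adjusted p = 0.0123). With median-ratio scaling the log2FC was -0.84 (adjusted p = 0.0372), with quantile normalization it was -0.68 and no longer called (adjusted p = 0.056), and without IVM pool 1 it was -0.96 (adjusted p = 0.0333).

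The log2 ratio of Glrx5 to Iscu, both taken as FPKM + 1, was -1.62, -1.72 and -2.03 in IVM and -2.49, -2.66 and -2.61 in IVO. Library scaling enters this ratio only through the added constant. Every IVO library had less Glrx5 per Iscu than every IVM library, and the means differed by -0.79 (-0.83 with a constant of 0.1). The exact two-sided permutation p was 0.1, the smallest that 3 against 3 libraries allow, and 0.167 after adjustment over the 5 ratios formed.

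The carriers that make the cubane-type cluster showed the largest differences of the 9 genes. Isca1 encodes an A-type carrier that assembles such clusters together with ISCA2 and IBA57, and lies on the reverse strand of chromosome 13 (chr13:59903223-59918118, ENSMUSG00000044792). Its FPKM was 47.36, 19.9 and 35.67 in IVM and 8.4, 7.92 and 6.38 in IVO. All IVM pools were higher than all IVO pools, although the IVM pools varied among themselves, at 34.3 ± 13.8 against 7.57 ± 1.06 FPKM (SD, n = 3 each). The IVM mean was 4.53 times the IVO mean, and the log2FC was -1.97 (standard error 0.33, 95% interval -2.73 to -1.20, limma adjusted p = 0.00709). Only 6.0% of all tested genes had a lower log2FC. The closest Isca1 transcript shares 681 bases with Etohd2 on the opposite strand. Etohd2 did not exceed 0.70 FPKM in any library, and how fragments in the shared bases were divided was not tested.

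Isca2, the second A-type carrier, lies on the forward strand of chromosome 12 (chr12:84820025-84821862, ENSMUSG00000021241). Its FPKM was 10.9, 6.84 and 8.49 in IVM and 0.89, 0.44 and 0.54 in IVO. The groups were far apart, and the IVO values rested on about 10, 5 and 6 fragments against 120, 89 and 110 in IVM, so that their relative precision was lower. The IVM mean was 14 times the IVO mean, and the log2FC was -2.57 (standard error 0.25, 95% interval -3.17 to -1.98, limma adjusted p = 0.00152). Since the IVO values lie near the constant of 1 added before taking logs, a constant of 0.1 gave -3.63 (adjusted p = 0.00202). Of all tested genes, 2.2% had a lower log2FC than Isca2. As Isca2 passed the expression filter only through its IVM libraries, this rank adds no support to the difference.

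The Isca2 transcript shares 273 bases (31.0%) with the opposite-strand gene Npc2, a lysosomal cholesterol-binding protein gene, which was itself lower in IVO. Npc2 stood at 22.88, 14.87 and 20.42 FPKM in IVM and 8.91, 9.51 and 8.61 in IVO (log2FC -1.01, limma adjusted p = 0.0175), and its part in the Isca2 values was not tested. Npc2 was above 8 FPKM in the IVO pools and Isca2 under 0.9, and these values per gene do not show how fragments in the shared bases were divided.

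The log2 ratio of Isca2 to Isca1, both taken as FPKM + 1, was -2.02, -1.41 and -1.95 in IVM and -2.31, -2.63 and -2.26 in IVO. The libraries did not overlap, with a difference of -0.61 (exact two-sided permutation p = 0.1, the smallest possible, adjusted p = 0.167). This value depended on the added constant, being -1.55 with 0.1 and -0.24 on fragment numbers rebuilt without length normalization. Iba57, whose product works with the A-type carriers, lies on the reverse strand of chromosome 11 (chr11:59046195-59054597, ENSMUSG00000049287) and was listed at 0 in all 6 libraries. For its length of 4021 bases, 3 fragments would give 0.0408 to 0.0479 FPKM, and no fold or test was formed.

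Of the 2 targeting factors, Bola3 was called lower in IVO and Nfu1 was not called. Nfu1 encodes a late carrier that hands cubane-type clusters to lipoyl synthase and respiratory complexes, and lies on the forward strand of chromosome 6 (chr6:86986200-87010675, ENSMUSG00000029993). Its FPKM was 65.04, 59.15 and 70.82 in IVM and 89.99, 76.81 and 69.08 in IVO. IVO pools 1 and 2 exceeded all IVM pools and IVO pool 3 did not, with means of 65.0 ± 5.84 and 78.6 ± 10.6 FPKM (SD, n = 3 each). The log2FC was 0.27 (standard error 0.18, 95% interval -0.17 to 0.70, limma adjusted p = 0.343). It was called higher in IVO only in the rescaled fits, at 0.59 (adjusted p = 0.0476) with median-ratio scaling and 0.78 (adjusted p = 0.0255) with quantile normalization.

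Bola3 encodes the BolA-family factor that works with GLRX5 and NFU1 in lipoyl synthase maturation. It lies on the same chromosome and strand as Nfu1 (chr6:83326129-83344737, ENSMUSG00000045160), with no other annotated gene over the exons of its transcript of closest length. Its FPKM was 110.19, 98.95 and 91.28 in IVM and 37.34, 47.41 and 40.95 in IVO. The groups were well separated, and both were tight, with an SD of 9.51 FPKM in IVM and 5.10 in IVO (n = 3). The IVM mean was 2.39 times the IVO mean, and the log2FC was -1.24 (standard error 0.18, 95% interval -1.67 to -0.81, limma adjusted p = 0.00479). With median-ratio scaling it was -0.92 (adjusted p = 0.0231) and with quantile normalization -0.72 (adjusted p = 0.0285), still called but under the DEG threshold. On rebuilt fragment numbers with no division by length, the log2FC of Bola3 was -1.38 (limma adjusted p = 0.00312).

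The log2 ratio of Bola3 to Nfu1 was 0.75, 0.73 and 0.36 in IVM and -1.25, -0.68 and -0.74 in IVO. Bola3 was thus the more abundant of the pair in every IVM pool and Nfu1 in every IVO pool, a difference of -1.51 (exact two-sided permutation p = 0.1, the smallest possible, adjusted p = 0.167). Leaving out any 1 library gave -1.63 to -1.33.

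**Figure D2:**
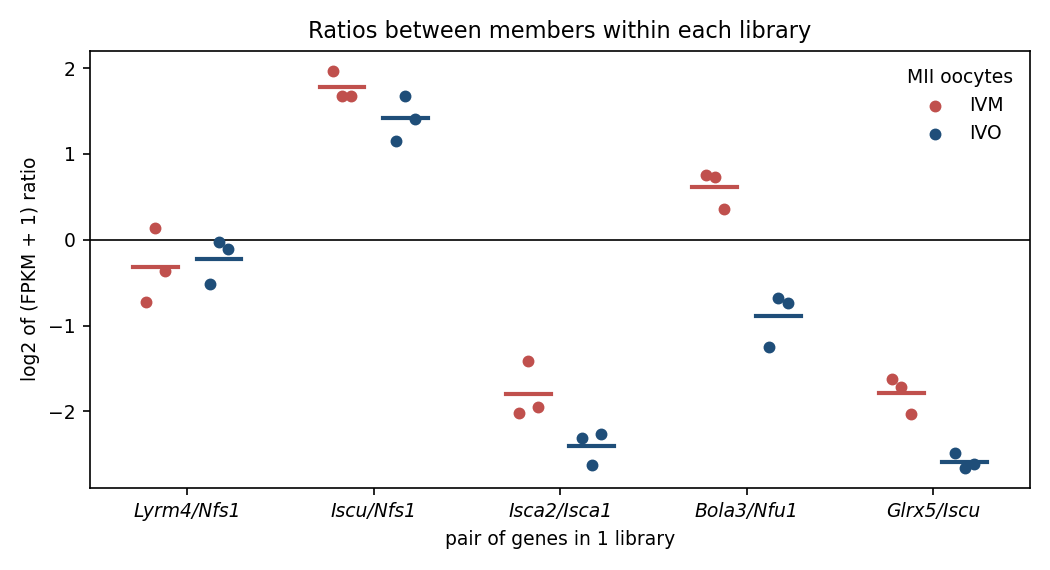
Log2 ratio of (FPKM + 1) between 2 partner genes in the same library, for the 5 pairs formed, with each point 1 library, each horizontal line a group mean, and the groups IVM and IVO side by side. The groups did not overlap for Bola3/Nfu1, Glrx5/Iscu and Isca2/Isca1, and overlapped for Lyrm4/Nfs1 and Iscu/Nfs1.

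The order of the 9 genes by FPKM, which is per length, differed between the groups in the middle of the list. In IVM, Iscu (100.27 to 153.16 FPKM) and Bola3 (91.3 to 110.19) overlapped at the top, Nfu1 followed alone, and Nfs1, Glrx5, Isca1 and Lyrm4 formed a block of overlapping neighbours between 19.9 and 49.02 FPKM. In IVO, Iscu stood alone at 97.2 to 105.11 FPKM, then Nfu1, and Bola3, Nfs1 and Lyrm4 overlapped between 29.8 and 47.4. Below them in IVO, Glrx5, Isca1 and Isca2 were each separated from the next, whereas Glrx5 and Isca1 were within the middle block in IVM. Isca2 and Iba57 were the lowest in both groups. The groups did not overlap, with IVM higher, in 4 of the 8 tested genes, and in 32.6% of all tested genes.

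**Figure D3:**
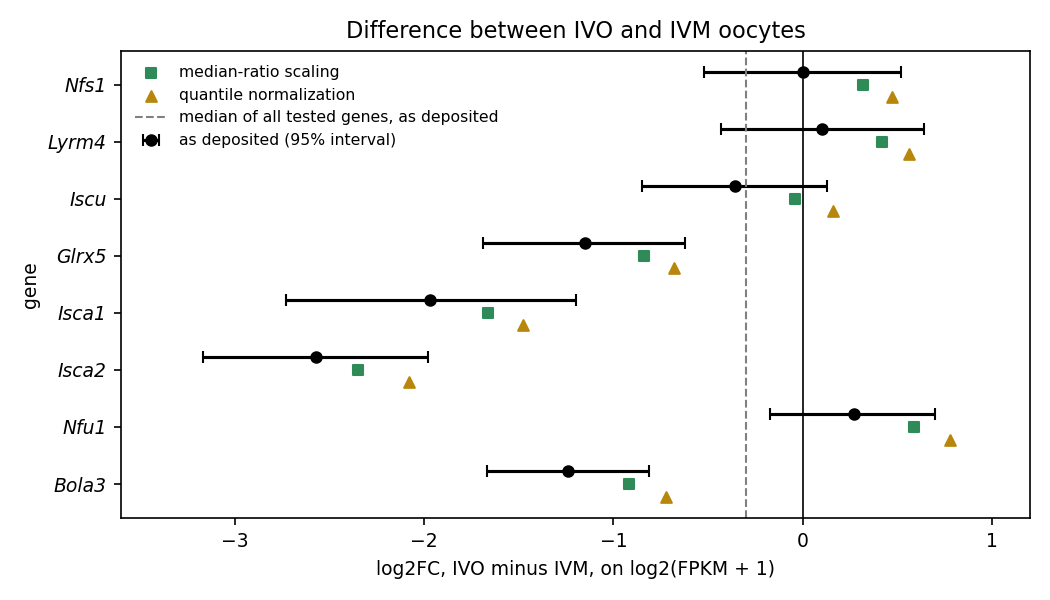
Log2FC (IVO minus IVM, on log2(FPKM + 1)) of the 8 tested genes in the deposited FPKM (circles, with bars for the 95% interval of the limma fit), with median-ratio scaling (squares) and with quantile normalization (triangles). Without scaling, the intervals of Isca2, Isca1, Bola3 and Glrx5 lie wholly below 0, and those of Nfs1, Lyrm4, Iscu and Nfu1 span 0.

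Stored maternal transcripts are lengthened or shortened at their poly(A) tails during meiotic maturation, a process directed by the polyadenylation hexamer and by cytoplasmic polyadenylation elements near the transcript end, so the ends of these transcripts are shown. Tail length was not measured here, and its part in the FPKM differences was not tested. They come from GENCODE M39 on GRCm39, for the coding transcript closest in length to the deposited one, and are read on the transcript strand alone. Capitals mark the hexamer (AATAAA or ATTAAA). The first 3 belong to genes called lower in IVO and the last 3 to genes that were not called.
Isca1: gtcgATTAAAaacatgcatctttatgatcc
Glrx5: tcctgcatAATAAAcccacaattcaacacc
Bola3: agatacattgtctatttagagttaATTAAA
Iscu: tatatattatAATAAAaatgtgagacaatg
Nfs1: aattcAATAAAttcccatttcctgtcctga
Nfu1: tattAATAAAaggtttccttcctccagaat

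These windows of 30 bases lie, in the same order, at chr13:59903225-59903254 (reverse strand), chr12:105009136-105009165, chr6:83335324-83335353, chr5:113916305-113916334, chr2:155965556-155965585 (reverse strand) and chr6:87005404-87005433, all in the 3′ UTR of the last exon. A hexamer was present in the last 40 bases of 7 of the 9 transcripts, the exceptions being Lyrm4 and Isca2, and in 74.6% of 9562 tested protein-coding genes. A cytoplasmic polyadenylation element, searched as TTTTAT or TTTTAAT with overlap of the hexamer allowed, was in the last 100 bases of 0 of the 9 and of 19.5% of those genes. The Isca1 transcript used was 1.2 times the deposited length, the Bola3 hexamer is the last 6 bases of its transcript, and the Bola3, Nfu1 and Iscu transcripts end before the annotated end of their gene, so the ends shown may not be the ones used in these oocytes.

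The partners of the machinery were mixed. Of 12 genes, 9 were tested, 4 were called lower, 1 higher and 4 not called, with a median log2FC of -0.41 against -0.30 for all tested genes. Of all tested genes, 21.5% were called lower and 1.87% higher. Fdx2, the ferredoxin that supplies electrons for cluster synthesis, had 15.96, 8.0 and 17.37 FPKM in IVM and 1.82, 1.93 and 1.36 in IVO (log2FC -2.39, standard error 0.31, limma adjusted p = 0.00336), with no overlap. Hspa9, the mitochondrial HSP70 that helps release the cluster from ISCU, was the exception in direction. It had 23.54, 23.68 and 38.9 FPKM in IVM and 61.47, 58.69 and 55.49 in IVO (log2FC 1.04, standard error 0.24, limma adjusted p = 0.021). The call for Hspa9 was lost without IVM pool 1, IVM pool 2, IVO pool 1 or IVO pool 2 (limma adjusted p = 0.0626 to 0.0688). It was also lost with the replicate block (0.0526), and was kept in 11 of 17 alternatives.

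Gfer, a sulfhydryl oxidase of the intermembrane space, had 20.97, 8.8 and 18.69 FPKM in IVM and 5.61, 5.55 and 4.28 in IVO (log2FC -1.40, limma adjusted p = 0.0239). Nubpl, a factor for cluster insertion into complex I, had 9.04, 8.51 and 5.83 in IVM and 3.51, 3.49 and 3.36 in IVO (log2FC -0.96, limma adjusted p = 0.0235). Both had IVM above IVO in every library. The Gfer call was lost without IVM pool 1, IVM pool 3 or any single IVO pool (limma adjusted p = 0.0546 to 0.0867). The Nubpl call was lost without IVM pool 1, IVM pool 2 or any single IVO pool (0.0607 to 0.0825). Quantile normalization also lost both calls (0.0724 for Gfer and 0.161 for Nubpl), and median-ratio scaling that of Nubpl (0.0768). Gfer was called in 10 of 17 alternatives and Nubpl in 8 of 17. Without IVO pool 1 or IVO pool 2, 1 of the 12 partners was called. Ndufab1, the acyl carrier protein that binds LYRM4 and the most abundant partner, had 796.29, 725.02 and 697.62 FPKM in IVM and 560.24, 582.23 and 637.99 in IVO and was not called (log2FC -0.32, limma adjusted p = 0.153). Also not called, and named after their values were seen, were the ferredoxin gene Fdx1 (log2FC 0.18, limma adjusted p = 0.527) and the cochaperone gene Hscb (log2FC -0.41, limma adjusted p = 0.119).

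Of the 3 BolA and glutaredoxin relatives, 2 were called lower in IVO and none higher, against 21.5% and 1.87% of all tested genes. Bola1, a mitochondrial BolA protein that binds GLRX5, had 94.28, 64.03 and 65.63 FPKM in IVM and 34.0, 24.59 and 24.25 in IVO (log2FC -1.40, standard error 0.24, limma adjusted p = 0.00776). Bola2, its cytosolic relative, had 12.26, 7.53 and 7.87 in IVM and 1.24, 0.9 and 2.38 in IVO (log2FC -2.04, standard error 0.31, limma adjusted p = 0.00513). Both were called in all 17 alternatives. Glrx3, the cytosolic partner of BOLA2, was not called (log2FC -0.96, limma adjusted p = 0.0544).

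The cytosolic assembly machinery, which builds clusters for cytosolic and nuclear proteins, had no call among 6 tested genes of 9 (limma), and 0 at an unadjusted p under 0.05, and its median log2FC was -0.04. Its most abundant gene, Ciao2b, which hands clusters to target proteins, had 258.27, 239.77 and 283.58 FPKM in IVM and 277.65, 293.46 and 268.17 in IVO (log2FC 0.10, limma adjusted p = 0.662). The lipoyl genes, for attachment of lipoic acid and for the subunits that carry it, likewise had no call among 5 tested of 7 (limma). At an unadjusted p under 0.05 the count was 0, and the median was 0.21. The shares called over all tested genes were 21.5% lower and 1.87% higher. Pdhx, a subunit of the pyruvate dehydrogenase complex, had 71.88, 57.04 and 67.14 in IVM and 73.09, 74.09 and 70.36 in IVO (log2FC 0.15, limma adjusted p = 0.566). With quantile normalization the absence of calls ended in both lists, as 1 cytosolic assembly gene (Ciao2b, log2FC 0.62, limma adjusted p = 0.0389) and 2 lipoyl genes (among them Pdhx, log2FC 0.66, limma adjusted p = 0.0315) were called.

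Among mitochondrial enzymes that carry the clusters, 7 of 14 tested genes were called lower and none higher, against 21.5% and 1.87% of all tested genes. At an unadjusted limma p under 0.05 the counts were 8 and 0, for which no share over all tested genes is given here. The median log2FC was -1.0, and 4 genes were called in each of the 5 fits without IVM pool 1, IVM pool 3 or any single IVO pool. Ndufs8, a complex I subunit that holds cubane-type clusters, had 9.86, 7.13 and 8.98 FPKM in IVM and 3.39, 2.52 and 2.7 in IVO (log2FC -1.32, limma adjusted p = 0.00742). Etfdh, which passes electrons from fatty acid oxidation to ubiquinone, had 291.04, 238.49 and 219.41 in IVM and 83.08, 49.82 and 109.04 in IVO (log2FC -1.68, limma adjusted p = 0.00896). Ndufs8, Etfdh and Cisd1 were each called in all 17 alternatives.

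Cisd1, the outer-membrane protein mitoNEET, had 89.2, 39.71 and 53.91 FPKM in IVM and 16.47, 17.68 and 14.89 in IVO (log2FC -1.76, limma adjusted p = 0.00799). Also called lower, and named after their values were seen, were Ndufs7 (log2FC -1.12), Ndufv2 (-0.92) and Fech (-1.07). Fech entered the test only through its IVM libraries, with an IVO mean of 0.757 FPKM. Lias, the lipoyl synthase that NFU1 and BOLA3 serve, also named after its values were seen, had 2.23, 1.38 and 1.66 FPKM in IVM and 1.02, 0.86 and 1.15 in IVO and was not called (log2FC -0.45, limma adjusted p = 0.243).

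Of the 15 recipients outside mitochondria, 12 were tested, 3 were called lower and none higher, with a median log2FC of -0.52. Over all tested genes 21.5% were called lower and 1.87% higher, so the calls of this list were near the background. At an unadjusted limma p under 0.05 the counts were 6 and 1, for which no share over all tested genes is given here. Cdkal1, a tRNA methylthiotransferase, had 462.43, 361.16 and 455.63 FPKM in IVM and 208.48, 196.27 and 148.19 in IVO (log2FC -1.21, standard error 0.20, limma adjusted p = 0.00682), and was called in 16 of 17 alternatives. Aco1, the cytosolic aconitase that doubles as an iron regulatory protein, had 2.61, 1.5 and 2.54 in IVM and 0.67, 0.48 and 0.31 in IVO (log2FC -1.10, limma adjusted p = 0.0278), and it entered the test only through its IVM libraries, since its IVO mean was under 1 FPKM. Abce1, a ribosome recycling factor, had 6.05, 7.66 and 8.91 in IVM and 3.38, 3.95 and 2.56 in IVO (log2FC -0.99, limma adjusted p = 0.0251). The Aco1 call was lost without IVM pool 1, IVM pool 3 or any single IVO pool (limma adjusted p = 0.0541 to 0.0749). The Abce1 call was lost without IVM pool 2, IVM pool 3, IVO pool 1 or IVO pool 3 (0.0662 to 0.0717). Quantile normalization also lost both calls (0.111 for Aco1 and 0.137 for Abce1), and median-ratio scaling that of Abce1 (0.0658). Aco1 was called in 9 of 16 alternatives and Abce1 in 9 of 17.

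For iron uptake and storage, 6 of 8 genes were tested, and the ferritin subunits were the 2 called, in opposite directions. The shares called over all tested genes were 21.5% lower and 1.87% higher. Fth1, the heavy chain that oxidises iron for storage, had 51.24, 26.73 and 35.26 FPKM in IVM and 195.04, 82.84 and 92.94 in IVO (log2FC 1.63, standard error 0.38, limma adjusted p = 0.0227). Ftl1, the light chain, had 214.85, 163.03 and 209.02 in IVM and 71.25, 38.37 and 66.12 in IVO (log2FC -1.76, standard error 0.27, limma adjusted p = 0.00564). The call for Fth1 was lost without IVM pool 2 (limma adjusted p = 0.0812) or IVM pool 3 (adjusted p = 0.0755). It was also lost with no filter (adjusted p = 0.0542), and was kept in 14 of 17 alternatives. Both genes have processed copies elsewhere in the genome that can share reads, so their levels are uncertain.

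Across the 7 lists, 55 of 68 genes were tested, 17 were called lower, 2 higher and 36 not called, with a median log2FC of -0.46. With median-ratio scaling 11 were called lower and 7 higher, and with quantile normalization 8 lower and 11 higher. The balance turned in the same way over all tested genes. There, 21.5% were called lower and 1.87% higher as deposited, 13.0% and 7.19% with median-ratio scaling, and 10.7% and 14.8% with quantile normalization. The 8 tested members had a median log2FC of -0.76, and with the same scalings -0.44 and -0.26. With a filter of 5 FPKM, which removed Isca2, it was -0.36, close to the -0.34 of all tested genes.

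**Figure D4:**
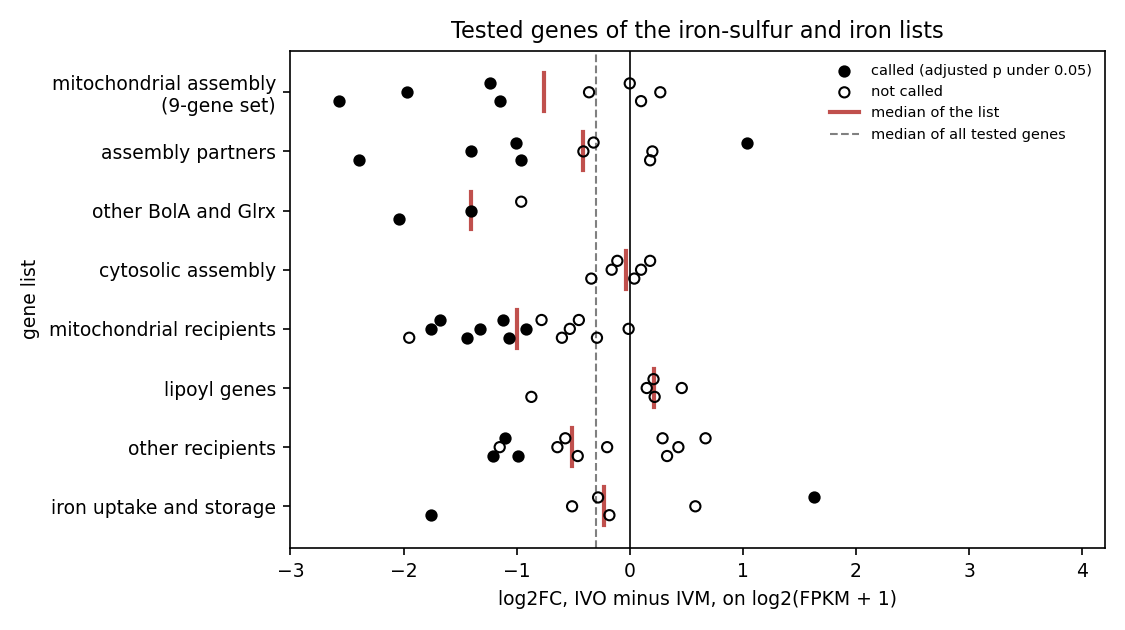
Log2FC (IVO minus IVM, on log2(FPKM + 1)) of each tested gene of the 9-gene set and of the 7 related lists, filled where called, with the median of each list in red and that of all tested genes dashed at -0.30. The calls of the 9-gene set, the BolA and glutaredoxin relatives and the mitochondrial recipients lie on the lower side without scaling of the libraries, the cytosolic assembly and lipoyl genes have none, and Hspa9 (1.04) and Fth1 (1.63) are the calls on the higher side.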

How the data were processed

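The authors amplified full-length cDNA from the RNA of pooled oocytes with SMART-Seq v4 and made Nextera XT libraries, read as 150-base pairs on an Illumina NovaSeq. Reads were filtered with SeqPrep and Sickle and aligned to GRCm39, and the submitters' processing notes name HISAT2 2.1.0, RSEM 1.3.3 and DESeq2 1.24.0. The annotation release is not given in the sources used here. The deposited values are FPKM per gene and library from the authors' RSEM run, in 1 table with a length per gene. The authors' group means in that table equal the mean of the 3 libraries within 3.3e-05 and were not used.

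Low FPKM values of genes of 500 to 4000 bases step by the worth of 1 fragment, and the depth and fragment length that best fitted these steps were taken for each library. Per library, 81.6% to 83.5% of these values came out at a whole number of fragments, within 0.05 fragments plus the rounding error of the listed FPKM. That error grows with gene length, and the depth was fitted to the same values, so this share is no independent check of it. FPKM are not counts, so no count test was run. limma 3.58.1 in R 4.3.3 (lmFit, eBayes with trend) was fitted to log2(FPKM + 1) of all 18818 genes with a mean of at least 1 FPKM, with group as the only term. P-values measure the spread between 3 pools per group. Ratios of partner genes were tested by exact permutation over libraries and adjusted over 5 ratios, since a sixth, Iba57 to Isca1, could not be formed with Iba57 at 0. Of the 53700 Ensembl genes, 52610 were found in GENCODE M39, which gave positions, exonic overlaps and transcript ends. The remaining 6493 rows are loci assembled from the reads.

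The 9 genes and the lists were chosen with earlier results of these data known. From each list the text names the genes with the 4 smallest p in each direction among those called, and the most abundant gene. Some listed genes count in the totals but are not reported here by name. Alternatives were a constant of 0.1, no filter or a mean of at least 5 FPKM, median-ratio scaling, quantile normalization, eBayes without trend, Ensembl genes only, removal of each library's trend with length by lowess (span 0.3), a replicate block with and without that removal, rebuilt fragment numbers with no division by length, and leaving out each library. Replicate numbers do not name a shared animal or day, and were treated as names. Matplotlib 3.10.9 drew the plots, and Python 3.11.15, pandas 2.3.3 and numpy 2.4.6 made the tables.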

Additional observations from a re-analysis of the deposited data

How the results depend on the processing

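Of the 9 genes, 4 were called in the reported fit and 3 to 5 over the 17 alternatives. Isca1 and Bola3 were called in 17 of 17 (log2FC -2.31 to -1.48 and -1.38 to -0.72), Isca2 in 16 of 16 (-3.63 to -2.08, as it was below the filter of 5 FPKM) and Glrx5 in 16 of 17 (-1.38 to -0.68). Nfs1, Lyrm4 and Iscu were called in none, and Nfu1 with the 2 scalings. The number of DEGs fell from 4 to 2 with median-ratio scaling and to 2 with quantile normalization, and was 3 to 4 with 1 library left out. The median log2FC of the tested members, -0.76, was -0.44 with median-ratio scaling, -0.26 with quantile normalization and -0.36 with the filter of 5 FPKM, which removed Isca2, and that of all tested genes turned to 0.17 with quantile normalization. With the trend with gene length removed, 4 members were called. Over the 7 lists, 19 genes were called, and 11 to 14 with 1 library left out. The calls fell to 11 without IVO pool 1 or IVO pool 2, to 12 without IVM pool 1, IVM pool 3 or IVO pool 3, and to 14 without IVM pool 2. The ratio of Isca2 to Isca1 moved from -0.61 to -1.55 with a constant of 0.1 and to -0.24 on rebuilt fragment numbers.

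With the replicate block, 4 members and 13 list genes were called. Deviations from the group mean correlated at -0.062, -0.018 and -0.107 between libraries of the same number and at -0.023 to 0.081 between other pairs. No library correlated best with its own number. With only 3 libraries per group, these values cannot show whether libraries of the same number shared a day or batch.

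The depth limits Isca2 in IVO, at 5 to 10 fragments, and Iba57, which was not detectable above 0.0479 FPKM.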
